A study of Homo sapiens with 12 samples.

Results

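The genes described here are the nuclear genes for the subunits and assembly factors of respiratory chain complexes I to V. They were chosen by symbol alone, as every gene in the expression tables whose symbol begins with NDUF, SDHAF, UQCR, ATP5, or COX and a digit, or is SDHA, SDHB, SDHC or SDHD. This found 54 of the 8842 genes that the tables list. RefSeq has 109 nuclear protein-coding genes with such symbols, of which 53 are listed and 56 are not, and the other member, NDUFA4L2, is COXFA4L2 in RefSeq. SDHA, NDUFS1, NDUFV1, UQCRFS1, COX4I1, COX5A and ATP5F1A are among the 56 without a value, so each complex is seen in part. Complex I has 21 members, complex II 6, complex III 3, complex IV 13 and complex V 11, and over all of them 36 are subunits, 14 are assembly factors and 4 are other forms or regulators.

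The study has 12 RNA libraries in 4 groups of 3 replicates, from the human liver cancer cell lines HepG2 and LM3. Cells of each line received, with Lipofectamine RNAiMAX, siRNA that targets FASRL, a long noncoding RNA (the siFASRL groups), or negative control siRNA (the siNC groups), and RNA was taken 48 h after transfection. The comparison asks which genes differ when FASRL is targeted, in each line. The deposited values are a normalized signal per gene from RSEM, with no counts, so the depth of the libraries is unknown, and FASRL's own level was not analysed here.

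Complexes I and II pass electrons from NADH and succinate to ubiquinone, complex III passes them on to cytochrome c, and complex IV to oxygen. The proton gradient that complexes I, III and IV build drives ATP synthesis by complex V. Each complex is put together in steps with the help of assembly factors that are not part of the finished enzyme, and liver cells depend on the chain for the oxidation of fatty acids.

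Some libraries stood apart from their group. In LM3 siNC replicate 1 the deviation of genes from their group mean had an SD of 0.13 on the log2 scale, against 0.052 to 0.099 in the other 11 libraries, and across 6269 genes, which are not independent replicates, it ran with transcript GC content at r = -0.51. HepG2 siNC replicate 2 showed r = 0.51 with GC content, and in HepG2 siFASRL replicate 1 the respiratory chain genes had a median deviation of -0.08. Values without these libraries are given for the counts over all members and for some of the genes and groups. The listed genes are also a selection: of 6367 genes with a mean signal of at least 5 in HepG2, only 12 had a log2 fold change between -0.2 and -0.04, while 438 lay between -0.4 and -0.2. In LM3, of 5937 genes with such a signal, 617 lay between -0.2 and -0.04 and 689 between -0.4 and -0.2. The members are listed genes too, so calls and medians of members and of all genes describe the listed genes only. Counts of calls in HepG2 and in LM3 are therefore not on equal terms.

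HepG2 carried the liver markers ALB, AFP, APOA1, APOB, TTR, SERPINA1, TF and HNF4A, and all 8 of 8 fell with siFASRL. Their summed signal was 4049.3, 3974.0 and 3664.3 in the siNC libraries and 1826.9, 1734.7 and 1782.8 in the siFASRL libraries, with SERPINA1, a secreted protease inhibitor, the most abundant at 40.3% of the sum. In LM3 only HNF4A, a liver transcription factor, passed the filter on low values, and its log2 fold change was -1.0. ALB was at most 0.62 and TTR at most 0.05 in any LM3 library, so LM3 lacked most of these liver markers. Of the 9 markers of leukocytes, stroma and endothelium looked for, 5 were listed, and VWF was at most 0.35 in every library. CD68, the most abundant of the 5 at 56.4% of their sum, lay between 13.4 and 54.3. The summed signal of the 5 was 77.5, 73.2 and 78.5 in the HepG2 siNC libraries, 92.9, 75.4 and 73.9 with siFASRL, 32.5, 28.3 and 28.2 in LM3 siNC and 22.8, 23.4 and 23.0 with siFASRL in LM3. COL1A1, a collagen, fell at -0.34 in HepG2 and -1.45 in LM3, and so did the stromal receptor PDGFRB, at -0.54 and -0.68. ACTA2, a smooth muscle actin, rose in HepG2 at 0.65 and was too low to test in LM3, and CD68 was at 0.11 (adjusted p = 0.374) in HepG2 and rose in LM3 at 0.23 (adjusted p = 0.0255). The part of these shifts in the results for respiratory chain genes was not tested, and in bulk RNA fewer cells of a kind and less RNA per cell cannot be told apart.

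In HepG2 the respiratory chain genes went both ways. Of the 54, 20 were higher and 25 lower with siFASRL at an adjusted p under 0.05 by limma, and 9 did not pass. Among all 8144 listed genes tested in HepG2, 44.8% were higher and 44.3% lower, where the members' shares were 37% and 46.3%. The median log2 fold change of the members was 0.11, beside 0.10 for all genes tested. A log2 fold change of -1 or below was reached by 4 members, NDUFA2, NDUFAB1, NDUFS7 and NDUFA4L2, and 1 or above by 0, beside 6.79% and 3.61% of all genes. Fold changes here are on log2(signal + 1), which makes those of low signals smaller. The HepG2 means of NDUFAF4 were 3.99 with siNC and 8.23 with siFASRL, at a log2 fold change of 0.89. Those of SDHAF4 were 9.77 and 4.73, at -0.9. By limma 45 members had an unadjusted p under 0.05, beside 89.4% of all genes. In 25 members every siFASRL library was below every siNC library and in 20 every one was above, where 44.2% and 45.4% of all genes did so. With the HepG2 effects centred on the range that holds nearly no gene, a setting chosen after the data were seen, 29 members were higher and 24 lower, beside 54.7% and 43.5% of all genes. Without siFASRL replicate 1 the counts were 25 and 25 (43.9% and 44.7% of all genes), and without siNC replicate 2 they were 21 and 24 (45.6% and 42.2%).

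LM3 gave fewer calls, among genes whose listing ran with the HepG2 effect. Of 51 members tested, 16 were higher, 19 lower and 16 did not pass, beside 33.9% higher and 43.5% lower among 7483 genes. NDUFC2-KCTD14, COX6B2 and NDUFA4L2 did not pass the filter on low values in LM3. The median of the members was 0.07 and that of all genes -0.06. NDUFA2 and NDUFAB1 were past a log2 fold change of -1, and 0 members were past 1, beside 6.2% and 1.42% of all genes. At an unadjusted p under 0.05 there were 36 members by limma, beside 78.8% of all genes. The groups did not overlap in 17 members with siFASRL lower and in 18 with siFASRL higher, beside 44.6% and 35.6% of all genes. Without siNC replicate 1, 17 were higher and 21 lower (37.8% and 44.2% of all genes), while without siFASRL replicate 2 only 8 were higher (30.3% of all genes). Scaling matters here: median-of-ratios scaling moved the median of all genes from -0.06 to 0.05 and gave 25 members higher and 10 lower, beside 42% and 37% of all genes, and quantile normalization gave 8 and 18, beside 37.5% and 34.7%.

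The 51 members tested in both lines kept 1 direction where both calls passed. Lower in both were 18 members, higher in both 11, in opposite directions 0, and 3 (COX16, COX8A and NDUFB7) passed in neither. Among 7349 genes tested in both lines, 36% were lower in both, 29.6% higher in both, 5.31% opposite and 5.51% called in neither. The p-values measure only the spread between these libraries, since experiments on the lines were repeated but nothing says that the 3 libraries of a group came from separate cultures, and for 1 gene an exact two-sided permutation test of 3 against 3 can reach no lower than 0.1.

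**Figure D1:**
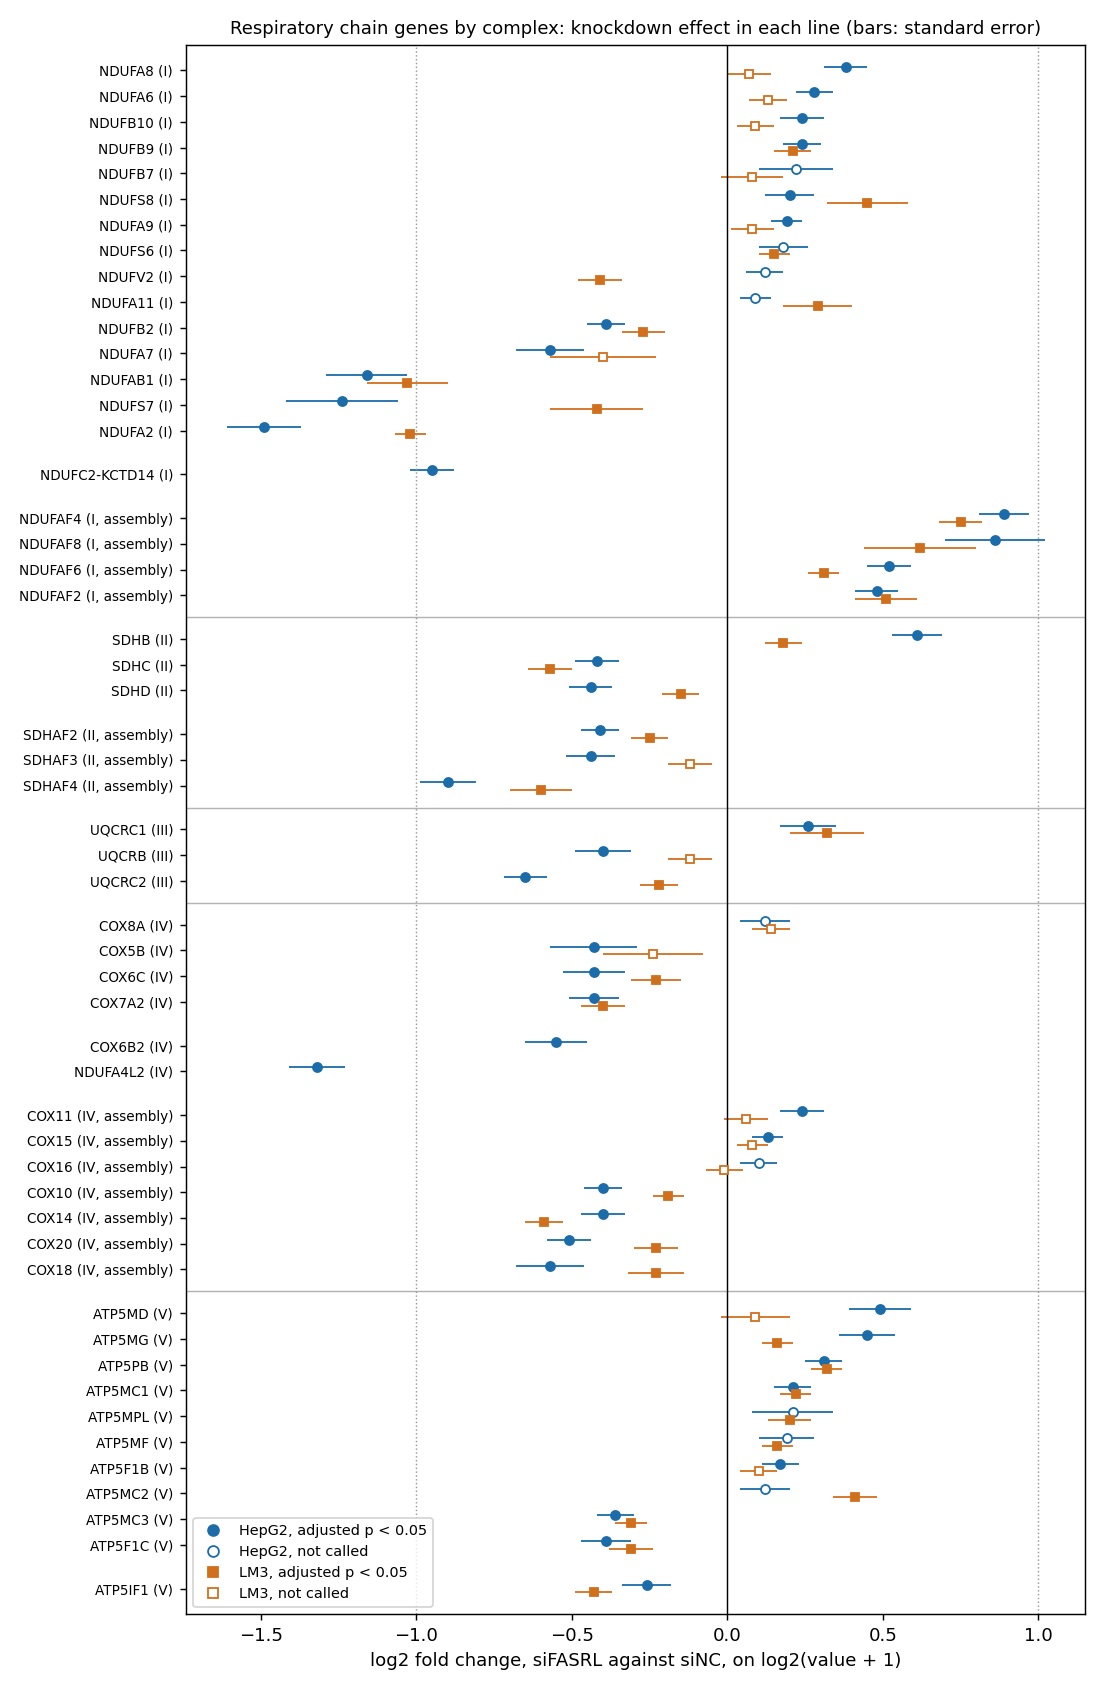
Log2 fold change of siFASRL against siNC for the respiratory chain genes apart from 1 that is not drawn, ordered by complex with assembly factors set apart, in HepG2 (circles) and LM3 (squares), filled where the adjusted p was under 0.05 and open where not, with bars of 1 SE. The 4 complex I assembly factors lie above 0 in both lines (median 0.69 in HepG2 and 0.56 in LM3), also under every scaling tried, and NDUFA2 and NDUFAB1 are lowest in LM3 at -1.02 and -1.03.

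The large falls among complex I subunits were in a few genes. NDUFA2 (Gene ID 4695), an accessory subunit next to the NADH-oxidizing arm, had a signal of 51.2, 55.8 and 51.8 in the HepG2 siNC libraries and 14.2, 20.6 and 20.4 with siFASRL. In LM3 it was 46.0, 50.3 and 50.6 with siNC and 23.5, 23.6 and 23.7 with siFASRL. Every siFASRL library was below every siNC library in both lines, with siFASRL replicate 1 the lowest in HepG2, and the log2 fold change (± SE) was -1.49 ± 0.12 (adjusted p = 2.88e-06) in HepG2 and -1.02 ± 0.05 (adjusted p = 1.18e-06) in LM3. Without HepG2 siFASRL replicate 1 the fall was -1.32. The exons of NDUFA2 share 124 of 851 bases with TMCO6 and 16 with IK on the opposite strand, and whether reads were counted by strand is not stated. NDUFAB1 (Gene ID 4706), the mitochondrial acyl carrier protein, serves fatty acid and lipoic acid synthesis as well as complex I. Its signal was 82.0, 103 and 82.8 with siNC and 31.8, 43.9 and 42.8 with siFASRL in HepG2, and 42.2, 56.0 and 59.2 against 22.0, 27.7 and 25.6 in LM3. The groups stood apart in both lines, with log2 fold changes of -1.16 ± 0.13 (adjusted p = 1.96e-05) and -1.03 ± 0.13 (adjusted p = 1.13e-04), and -1.17 in LM3 without siNC replicate 1. In LM3 both genes are so close to -1 that the count past it was 1 without siFASRL replicate 1 or siNC replicate 2, and 0 without siNC replicate 3. Their promoters, 250 bases before to 50 after the start, are shown because these genes had the lowest effects of the subunits in both lines on average. They are from RefSeq for GRCh38.p14, NDUFA2 at chr5:140647581-140647880 and NDUFAB1 at chr16:23596267-23596566, both on the minus strand, and capitals mark a match to the NRF1 motif GCGCANGCG or its reverse complement.
NDUFA2: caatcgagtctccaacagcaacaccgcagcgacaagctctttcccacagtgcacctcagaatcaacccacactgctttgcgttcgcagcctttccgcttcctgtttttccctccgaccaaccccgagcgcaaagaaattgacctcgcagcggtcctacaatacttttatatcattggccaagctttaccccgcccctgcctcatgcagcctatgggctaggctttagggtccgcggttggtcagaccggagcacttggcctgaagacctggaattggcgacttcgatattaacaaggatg
NDUFAB1: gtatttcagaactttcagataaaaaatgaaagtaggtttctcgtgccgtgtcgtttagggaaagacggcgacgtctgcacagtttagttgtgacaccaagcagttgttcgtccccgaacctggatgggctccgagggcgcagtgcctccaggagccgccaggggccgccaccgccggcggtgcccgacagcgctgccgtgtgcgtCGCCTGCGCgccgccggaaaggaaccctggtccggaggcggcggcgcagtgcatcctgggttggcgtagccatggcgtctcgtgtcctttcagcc

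NDUFS7, a core subunit with an iron-sulfur cluster beside the ubiquinone site, was 31.5, 44.5 and 33.1 in HepG2 siNC and 10.7, 17.97 and 16.2 with siFASRL, a log2 fold change of -1.24 ± 0.18 (adjusted p = 1.15e-04). All 3 siFASRL libraries were below the siNC libraries, and the fall was -1.03 without siFASRL replicate 1. In LM3 it was 25.8, 39.7 and 39.3 with siNC and 25.6, 25.1 and 25.6 with siFASRL, where siNC replicate 1 sat next to the siFASRL libraries without overlap. The LM3 effect was -0.42 ± 0.15 (adjusted p = 0.0274), and -0.62 (adjusted p = 1.65e-06) without siNC replicate 1. It did not pass without any 1 of the other 5 LM3 libraries (adjusted p of 0.067 to 0.0907), nor with median-of-ratios scaling (adjusted p = 0.0812). NDUFV2, a core subunit of the NADH-oxidizing arm, parted the lines: it was 114, 109.5 and 116 against 117, 126 and 127 in HepG2, and 107, 118 and 109 against 76.8, 84.8 and 89.6 in LM3. With siFASRL all 3 LM3 libraries were below the siNC libraries and the effect was -0.41 ± 0.07 (adjusted p = 7.57e-04), while in HepG2 they were above without passing the test, at 0.12 (adjusted p = 0.0713). It did pass there without siFASRL replicate 1 (0.16, adjusted p = 0.0258), with the GC trend removed (0.15, adjusted p = 0.0247) and with the effects centred on the range with nearly no gene (0.24). Its HepG2 direction turned with quantile normalization (-0.04, adjusted p = 0.5) and with the length trend removed (-0.06, adjusted p = 0.313), without passing in either. NDUFB2 and NDUFA7, both accessory subunits, fell in HepG2 at -0.39 and -0.57, and in LM3 NDUFB2 fell at -0.27 while NDUFA7 was at -0.40 (adjusted p = 0.0604), or -0.63 and past the test without siNC replicate 1. The LM3 call of NDUFB2 was lost with median-of-ratios scaling (-0.15, adjusted p = 0.055). NDUFB2 shares 1239 of 3184 exon bases with BRAF on the opposite strand, and NDUFA7 456 of 601 with an overlapping transcript on the same strand.

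Other complex I subunits rose by less. NDUFS8, a core subunit with iron-sulfur clusters, was 67.2, 94.1 and 98.6 in LM3 siNC and 115, 120.5 and 115 with siFASRL. Its LM3 effect was 0.45 ± 0.13 (adjusted p = 0.0115) and 0.28 without siNC replicate 1, the lowest of the siNC libraries. In HepG2 it was 96.7, 112 and 104 against 107, 127 and 125, which overlap, and the effect of 0.20 (adjusted p = 0.0437) was lost without siFASRL replicate 2 or 3 or siNC replicate 1 or 3 (0.14 to 0.20, adjusted p of 0.0848 to 0.158) and with quantile normalization (0.03). Removal of the length trend took it to -0.03 in HepG2 and, in LM3, to 0.23 without passing (adjusted p = 0.0738). NDUFA8, NDUFA6, NDUFB9, NDUFB10 and NDUFA9, all accessory subunits, rose in HepG2 at 0.38, 0.28, 0.24, 0.24 and 0.19, the last 2 losing the call with quantile normalization (0.06 for each). In LM3 the accessory subunits NDUFA11, NDUFB9 and NDUFS6 rose at 0.29, 0.21 and 0.15. Each of these 3 calls was lost without at least 1 library: NDUFB9 without siFASRL replicate 2 (0.19), NDUFS6 without siFASRL replicate 1 or 2 or siNC replicate 2 or 3 (0.13 to 0.15), and NDUFA11 without siFASRL replicate 1, 2 or 3 (0.27 to 0.31). All 3 were also lost with quantile normalization (0.17, 0.07 and -0.02 for NDUFA11, NDUFB9 and NDUFS6) and with the length trend removed (0.22, 0.07 and -0.04). NDUFA11 was at 0.14 without siNC replicate 1.

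Over the 16 complex I subunits the counts were 7 higher, 5 lower and 4 not called in HepG2, with a median of 0.18. Among all genes 44.8% were higher and 44.3% lower. In HepG2 quantile normalization gave 4 higher and 5 lower (median 0.05), and removal of the length trend gave 5 and 5 (median 0.0). Of all genes, 43.7% and 40.6% were higher and lower with the former, and 43.1% and 44.4% with the latter. Without siFASRL replicate 1 the HepG2 counts were 9 and 5, beside 43.9% and 44.7% of all genes. In LM3 4 were higher, 5 lower and 7 not called, with a median of 0.07, beside 33.9% and 43.5% of all genes. Quantile normalization (1 higher, 6 lower) or removal of a trend with transcript length (0 higher, 6 lower) turned that median to -0.02 and -0.14. Of all genes in LM3, 37.5% and 34.7% were higher and lower with the former, and 31.4% and 44.7% with the latter. Median-of-ratios scaling raised the LM3 median to 0.19, with 9 higher and 3 lower, beside 42% and 37% of all genes. Without siFASRL replicate 2 only 1 was higher and 4 lower in LM3, beside 30.3% and 41.3% of all genes. The readthrough gene NDUFC2-KCTD14 was 53.8, 65.6 and 58.5 in HepG2 siNC and 29.9, 30.0 and 30.1 with siFASRL, a fall of -0.95 ± 0.07 (adjusted p = 1.92e-06) with no overlap. It was at most 0.40 in LM3. Its exons share 431 of 826 bases with NDUFC2, an accessory subunit that is not listed, so the value may hold reads of that gene, which was not tested.

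All 4 complex I assembly factors rose in both lines, as did 29.6% of all genes tested in both. NDUFAF4, which acts early in the assembly of the ubiquinone-binding arm, had the largest rise of the members on average, from 4.51, 3.62 and 3.85 to 8.96, 8.22 and 7.5 in HepG2 and from 5.55, 4.86 and 4.76 to 9.04, 8.64 and 9.96 in LM3. Every siFASRL library was above every siNC library, and the log2 fold changes were 0.89 ± 0.08 (adjusted p = 6.67e-06) and 0.75 ± 0.07 (adjusted p = 2.08e-05). Reads of the 4 pseudogenes that RefSeq names after NDUFAF4 may count towards it. NDUFAF8, a partner of an enzyme that modifies NDUFS7, was 28.8, 39.98 and 27.9 in HepG2 siNC and 46.2, 67.9 and 64.0 with siFASRL, and 14.5, 25.5 and 25.1 against 34.9, 32.5 and 31.2 in LM3. Its groups did not overlap, but LM3 siNC replicate 1 was far below the other siNC libraries. The effect was 0.86 ± 0.16 (adjusted p = 6.48e-04) in HepG2 and 0.62 ± 0.18 (adjusted p = 0.0139) in LM3, where it was 0.36 (adjusted p = 2.36e-04) without siNC replicate 1 and 0.57 (adjusted p = 0.0507) without siFASRL replicate 1.

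NDUFAF2, a late assembly chaperone, was 22.2, 18.4 and 21.3 in HepG2 siNC and 28.4, 30.2 and 28.5 with siFASRL, and 31.04, 23.5 and 23.6 against 38.6, 36.0 and 36.9 in LM3. The siFASRL libraries were above all siNC libraries in both lines, with effects of 0.48 ± 0.07 (adjusted p = 1.84e-04) and 0.51 ± 0.10 (adjusted p = 0.00174). NDUFAF6, needed early in complex I assembly, rose at 0.52 ± 0.07 (adjusted p = 9.21e-05) in HepG2 and 0.31 ± 0.05 (adjusted p = 3.21e-04) in LM3. The median of the 4 was 0.69 and 0.56. All 4 stayed called under median-of-ratios and quantile scaling and without the libraries that stand apart, and with the length trend removed 4 were called in HepG2 and 2 in LM3, where NDUFAF2 (0.28, adjusted p = 0.0796) and NDUFAF8 (0.37, adjusted p = 0.0557) did not pass.

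In complex II the subunits parted. SDHB (Gene ID 6390), the iron-sulfur subunit, was 52.3, 57.02 and 58.6 in HepG2 siNC and 78.1, 88.0 and 92.5 with siFASRL, and 57.6, 63.8 and 58.5 against 66.6, 68.9 and 68.2 in LM3. The siFASRL libraries were above in both lines, at 0.61 ± 0.08 (adjusted p = 4.18e-05) and 0.18 ± 0.06 (adjusted p = 0.017). The LM3 call was lost without siFASRL replicate 2 or 3 or siNC replicate 3 (0.16 to 0.17, adjusted p of 0.0511 to 0.0616) and with quantile normalization (0.08), and removal of the length trend took it to -0.0050. The membrane anchors SDHC and SDHD hold the ubiquinone site. SDHC fell from 43.8, 38.4 and 44.9 to 32.4, 31.3 and 30.1 in HepG2 and from 30.7, 25.5 and 26.4 to 17.4, 18.9 and 18.1 in LM3, and SDHD (Gene ID 6392) from 53.4, 51.2 and 53.0 to 35.0, 39.1 and 41.9 and from 46.0, 48.8 and 47.0 to 39.4, 43.6 and 44.6. Neither overlapped between groups in either line. The effects were -0.42 ± 0.07 (adjusted p = 2.95e-04) and -0.57 ± 0.07 (adjusted p = 1.36e-04) for SDHC, and -0.44 ± 0.07 (adjusted p = 2.48e-04) and -0.15 ± 0.06 (adjusted p = 0.0474) for SDHD. The LM3 call of SDHD was lost without siFASRL replicate 1 or 2 or siNC replicate 2 or 3 (-0.10 to -0.17, adjusted p of 0.0721 to 0.173) and with median-of-ratios scaling. RefSeq names 5 pseudogenes after SDHC and 7 after SDHD, whose reads may count towards either gene.

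The complex II assembly factors all fell in HepG2. SDHAF4 (Gene ID 135154), which helps flavin-bearing SDHA join SDHB, went from 8.36, 10.5 and 10.5 to 4.65, 4.39 and 5.16 in HepG2 and from 7.30, 6.96 and 6.56 to 3.38, 4.79 and 4.60 in LM3. With no overlap in either line, the effects were -0.90 ± 0.09 (adjusted p = 9.55e-06) and -0.60 ± 0.10 (adjusted p = 6.71e-04). SDHAF2, which attaches flavin to SDHA, fell at -0.41 ± 0.06 (adjusted p = 9.42e-05) and -0.25 ± 0.06 (adjusted p = 0.00519), and median-of-ratios scaling ended its LM3 call. SDHAF3, which helps the iron-sulfur subunit mature, fell in HepG2 at -0.44 ± 0.08 (adjusted p = 5.39e-04) and was at -0.12 (adjusted p = 0.153) in LM3. The 3 had medians of -0.44 and -0.25, and 44.3% of all genes were lower in HepG2 and 43.5% in LM3. The promoters of SDHB, SDHD and SDHAF4 are shown to set the gene of complex II that rose beside some of those that fell. They are RefSeq sequences of GRCh38.p14, SDHB at chr1:17053983-17054282 on the minus strand, SDHD at chr11:112086623-112086922 on the plus strand and SDHAF4 at chr6:70566680-70566979 on the plus strand, read 5′ to 3′. Capitals mark matches, on either strand, to the YY1 motif AAGATGGCG in SDHB, to overlapping NRF1 motifs and the ETS motif CCGGAAGT in SDHD, and to the NRF1 motif in SDHAF4. Of those that fell in HepG2 and are not shown, SDHAF3 held the NRF1 motif and SDHAF2 only the ETS motif. No match was recorded for SDHC, whose promoter may be among those that RefSeq does not give.
SDHB: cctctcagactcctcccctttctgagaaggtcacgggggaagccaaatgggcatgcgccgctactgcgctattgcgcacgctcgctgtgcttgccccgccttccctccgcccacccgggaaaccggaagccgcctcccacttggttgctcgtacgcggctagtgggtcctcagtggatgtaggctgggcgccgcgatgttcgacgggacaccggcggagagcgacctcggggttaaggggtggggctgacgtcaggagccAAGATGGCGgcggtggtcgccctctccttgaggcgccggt
SDHD: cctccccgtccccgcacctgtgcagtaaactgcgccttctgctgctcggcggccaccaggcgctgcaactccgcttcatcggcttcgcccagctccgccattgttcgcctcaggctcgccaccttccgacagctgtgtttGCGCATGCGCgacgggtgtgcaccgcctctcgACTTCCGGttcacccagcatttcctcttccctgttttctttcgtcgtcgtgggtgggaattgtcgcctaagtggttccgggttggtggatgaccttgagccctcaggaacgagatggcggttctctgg
SDHAF4: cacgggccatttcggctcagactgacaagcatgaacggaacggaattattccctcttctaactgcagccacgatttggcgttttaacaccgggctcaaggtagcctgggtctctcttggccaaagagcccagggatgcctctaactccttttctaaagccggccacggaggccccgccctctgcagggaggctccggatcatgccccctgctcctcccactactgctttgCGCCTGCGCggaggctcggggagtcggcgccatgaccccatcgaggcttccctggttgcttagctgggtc

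Complex III has 3 members under the symbol rule, which also parted. UQCRC2, a core protein of the matrix side, fell from 93.9, 100.4 and 96.3 to 56.6, 64.1 and 64.1 in HepG2 and from 54.5, 58.9 and 59.2 to 46.8, 51.3 and 49.7 in LM3. No siFASRL library reached a siNC library, and the effects were -0.65 ± 0.07 (adjusted p = 1.18e-05) and -0.22 ± 0.06 (adjusted p = 0.00766), the latter lost with median-of-ratios scaling (-0.10). Its partner UQCRC1 was 122, 151 and 128 in HepG2 siNC and 143, 172 and 166 with siFASRL, and 131, 189.9 and 178 against 207, 207 and 204 in LM3. The HepG2 groups overlap, the LM3 groups do not. The rises of 0.26 (adjusted p = 0.0253) and 0.32 (adjusted p = 0.0378) were lost in HepG2 without siFASRL replicate 2 or 3 or siNC replicate 1 or 3 (0.20 to 0.23), in LM3 without siFASRL replicate 1, 2 or 3 (0.32 to 0.33), and in both with quantile normalization (0.16 and 0.19). In LM3 the rise was 0.16 (adjusted p = 0.0106) without siNC replicate 1. UQCRB, a small subunit near the ubiquinone site, fell in HepG2 at -0.40 ± 0.09 (adjusted p = 0.00173) and was at -0.12 (adjusted p = 0.149) in LM3.

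**Figure D2:**
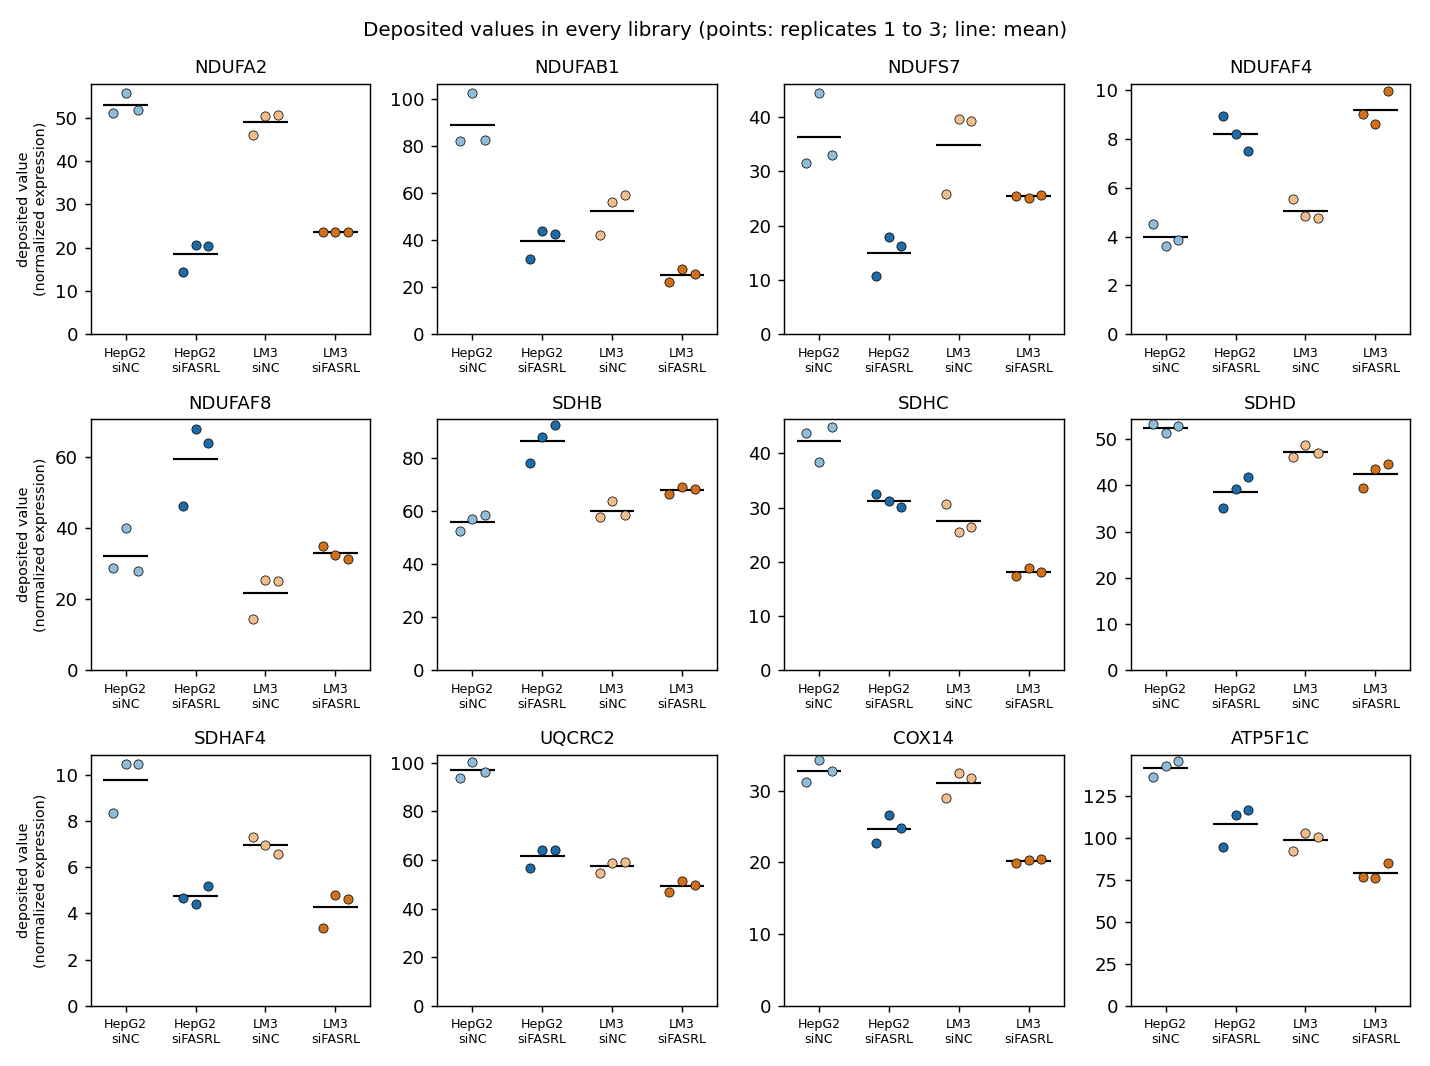
Signal of the respiratory chain genes with the largest effects in each of the 12 libraries, with the line at each group mean. NDUFA2 lies between 14.2 and 20.7 in HepG2 siFASRL libraries and between 51.2 and 55.8 with siNC, and LM3 siNC replicate 1 is low for NDUFS7 (25.8) and NDUFAF8 (14.5).

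Complex IV subunits fell or did not pass. COX7A2, a small subunit with tissue forms, went from 107, 108 and 118 to 72.7, 87.1 and 87.6 in HepG2 and from 63.5, 77.9 and 69.5 to 52.8, 52.0 and 53.7 in LM3, with no overlap and effects of -0.43 ± 0.08 (adjusted p = 7.13e-04) and -0.40 ± 0.07 (adjusted p = 0.00112). COX6C, another small subunit, fell at -0.43 ± 0.10 (adjusted p = 0.00261) and -0.23 ± 0.08 (adjusted p = 0.0281), the LM3 call being lost without siFASRL replicate 1 or 2 or siNC replicate 2 or 3 (-0.18 to -0.22) and with median-of-ratios scaling (-0.11). RefSeq names 18 pseudogenes after COX6C and 8 after COX5B, whose reads may count towards these genes. COX5B was 154, 192 and 145 in HepG2 siNC and 98.1, 135 and 132 with siFASRL, and 192, 296 and 306 against 218, 224 and 216 in LM3. It fell in HepG2 at -0.43 ± 0.14 (adjusted p = 0.0134), or -0.31 (adjusted p = 0.0523) without siNC replicate 2, and in LM3 the groups overlap only through siNC replicate 1, with -0.24 (adjusted p = 0.185), or -0.46 (adjusted p = 1.38e-05) without it. COX8A was at 0.12 (adjusted p = 0.158) and 0.14 (adjusted p = 0.081) in the lines. It passed as higher in HepG2 without siFASRL replicate 1 (0.21, adjusted p = 0.0117) and with the effects centred on the range with nearly no gene (0.24, adjusted p = 0.0133). In LM3 it passed as higher with median-of-ratios scaling (0.25, adjusted p = 0.00594), with the GC trend removed (0.20, adjusted p = 0.0159) and without siNC replicate 3 (0.20, adjusted p = 0.0155). Removal of the length trend turned COX8A to -0.20 (adjusted p = 0.00618) in HepG2 and -0.13 (adjusted p = 0.0891) in LM3. The 4 subunits had 0 higher and 3 lower in HepG2 and 0 and 2 in LM3, with medians of -0.43 and -0.24, where 44.3% and 43.5% of all genes were lower. By limma 3 and 2 of them had an unadjusted p under 0.05, beside 89.4% and 78.8% of all genes. Median-of-ratios scaling left 1 higher and 1 lower in LM3, beside 42% and 37% of all genes.

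NDUFA4L2 and COX6B2 are forms of complex IV subunits used in some tissues or conditions, NDUFA4L2 being known for its induction under low oxygen. NDUFA4L2 was 57.5, 68.6 and 52.2 in HepG2 siNC and 24.2, 23.5 and 21.8 with siFASRL, a fall of -1.32 ± 0.09 (adjusted p = 1.22e-06) with no overlap. In LM3 it was at most 0.13 in any library. COX6B2, a form known from testis, was 1.53, 2.03 and 1.65 against 1.03, 0.61 and 0.99 in HepG2, near the filter of 1, with an effect of -0.55 ± 0.10 (adjusted p = 5.62e-04), or -0.22 and not passing with quantile normalization.

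Among the 7 complex IV assembly factors, 2 rose and 4 fell in HepG2 (median -0.40), and 0 rose and 4 fell in LM3 (median -0.19), where 44.3% and 43.5% of all genes fell. Median-of-ratios scaling gave 2 higher and 1 lower in LM3, beside 42% and 37% of all genes. COX14, which binds a newly made mitochondrial subunit, fell from 31.3, 34.2 and 32.8 to 22.6, 26.7 and 24.8 in HepG2 and from 28.9, 32.5 and 31.8 to 19.9, 20.3 and 20.5 in LM3, without overlap, at -0.40 ± 0.07 (adjusted p = 4.61e-04) and -0.59 ± 0.06 (adjusted p = 2.33e-05). COX18, an insertase of the inner membrane, was 4.03, 5.05 and 3.65 in HepG2 siNC and 2.10, 2.55 and 2.94 with siFASRL, a fall of -0.57 ± 0.11 (adjusted p = 8.30e-04). In LM3 the COX18 groups overlap and the effect was -0.23 (adjusted p = 0.0493), which did not pass without any 1 of the libraries other than siNC replicate 1 (-0.15 to -0.26, adjusted p of 0.0607 to 0.173) and turned to 0.08 with quantile normalization. COX20, a chaperone of a mitochondrially encoded subunit, fell at -0.51 and -0.23, the LM3 call being lost without siFASRL replicate 1 (-0.20, adjusted p = 0.0619) and with median-of-ratios scaling (-0.12). The steps of heme A synthesis went apart: COX10 fell at -0.40 ± 0.06 (adjusted p = 8.99e-05) and -0.19 ± 0.05 (adjusted p = 0.0107), the LM3 call being lost with median-of-ratios scaling (-0.08, adjusted p = 0.203) and quantile normalization (-0.01, adjusted p = 0.823), and COX15 was higher at 0.13 (adjusted p = 0.0376) in HepG2, not passing without siFASRL replicate 2 or 3 or siNC replicate 1 or 3 (0.12 to 0.13), and at 0.08 (adjusted p = 0.179) in LM3. COX11, a copper carrier, rose at 0.24 (adjusted p = 0.0072) in HepG2, and COX16 passed in neither line.

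Complex V subunits went both ways. Of 10, 5 were higher, 2 lower and 3 not called in HepG2 (median 0.20), and 6, 2 and 2 in LM3 (median 0.16), where 44.8% and 44.3% of all genes were higher and lower in HepG2 and 33.9% and 43.5% in LM3. The count depends on scaling: quantile normalization gave 4 higher and 3 lower in HepG2 and 2 and 2 in LM3, and removal of the length trend gave 3 and 2 in HepG2 and 2 and 2 in LM3, with an LM3 median of -0.02. Of all genes, quantile normalization gave 43.7% higher and 40.6% lower in HepG2 and 37.5% and 34.7% in LM3. Removal of the length trend gave 43.1% and 44.4% of all genes in HepG2 and 31.4% and 44.7% in LM3. The count of complex V subunits depends on 1 library as well. It was 3 higher and 2 lower in LM3 without siFASRL replicate 2, beside 30.3% and 41.3% of all genes. ATP5PB, the b subunit of the peripheral stalk, went from 55.0, 54.4 and 60.3 to 69.5, 69.7 and 71.1 in HepG2 and from 110.5, 104 and 104 to 127, 132 and 138 in LM3. The siFASRL libraries were above all siNC libraries, at 0.31 ± 0.06 (adjusted p = 7.79e-04) and 0.32 ± 0.05 (adjusted p = 7.04e-04), and both calls passed in every setting tried. RefSeq names 8 pseudogenes each after ATP5PB, ATP5MC1 and ATP5MG, 7 after ATP5MF and 5 after ATP5MC2, and no setting tests whether their reads count towards these genes. ATP5F1C, the rotating gamma subunit, fell from 136, 143 and 146 to 94.5, 113 and 117 in HepG2 and from 91.8, 103 and 100.4 to 76.6, 76.0 and 84.8 in LM3. No groups overlapped, and the effects were -0.39 ± 0.08 (adjusted p = 0.00128) and -0.31 ± 0.07 (adjusted p = 0.00257). The catalytic subunit ATP5F1B was 515, 545 and 539.6 in HepG2 siNC and 572, 624 and 603 with siFASRL, at 0.17 (adjusted p = 0.0204), and 0.10 (adjusted p = 0.185) in LM3. Its groups do not overlap, yet the HepG2 call was lost without siFASRL replicate 2 or 3 or siNC replicate 1 (0.14 to 0.16), and quantile normalization turned it to -0.13 (adjusted p = 0.0383).

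The genes ATP5MC1, ATP5MC2 and ATP5MC3 encode the same mature c subunit of the membrane ring, and they did not move together. ATP5MC3 went from 74.0, 68.4 and 74.5 to 53.5, 57.5 and 57.7 in HepG2 and from 47.3, 45.5 and 43.0 to 35.8, 36.4 and 36.7 in LM3, falls of -0.36 ± 0.06 (adjusted p = 3.59e-04) and -0.31 ± 0.05 (adjusted p = 6.90e-04) with no overlap. ATP5MC2 was 427, 351 and 387 in LM3 siNC and 516, 510.3 and 514 with siFASRL, a rise of 0.41 ± 0.07 (adjusted p = 8.84e-04), and was at 0.12 (adjusted p = 0.177) in HepG2, where the groups overlap. ATP5MC1 rose at 0.21 (adjusted p = 0.00944) and 0.22 (adjusted p = 0.00273), the HepG2 call being lost without siFASRL replicate 2 (0.16, adjusted p = 0.0507) the LM3 call with quantile normalization (0.06) and the direction in both lines with the length trend removed. The membrane subunits ATP5MG and ATP5MD rose in HepG2 at 0.45 and 0.49, and in LM3 ATP5MG, ATP5MF and ATP5MPL rose at 0.16, 0.16 and 0.20, and all 3 calls were lost with quantile normalization and with the length trend removed. Without siFASRL replicate 2 the 3 were at 0.15, 0.14 and 0.18 and did not pass, nor did ATP5MG without siFASRL replicate 3 (0.16) or siNC replicate 2 (0.13), ATP5MF without siFASRL replicate 1 (0.16) or siNC replicate 2 (0.13), or ATP5MPL without siFASRL replicate 1 (0.22) or 3 (0.19). ATP5IF1, the inhibitor of ATP hydrolysis by complex V, was 185, 177 and 205 in HepG2 siNC and 142, 169 and 161 with siFASRL, and 180.4, 177 and 193 against 137, 139 and 131 in LM3. It was lower in every siFASRL library, at -0.26 ± 0.08 (adjusted p = 0.0122) and -0.43 ± 0.06 (adjusted p = 1.26e-04), and the HepG2 call was lost with the effects centred on the range with nearly no gene (-0.14).

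Subunits and assembly factors both held genes that rose and genes that fell. In HepG2, of 36 subunits, 14 were higher, 14 lower and 8 not called (median 0.15), and of 14 assembly factors 6, 7 and 1 (median -0.15). The HepG2 subunits gave 9 higher and 15 lower with quantile normalization (median 0.02). They gave 10 and 15 with the length trend removed (median -0.07), and 19 and 14 without siFASRL replicate 1. The shares of all genes in these settings were 43.7% and 40.6%, 43.1% and 44.4%, and 43.9% and 44.7%. In LM3 the subunits gave 12, 12 and 12 (median 0.08) and the assembly factors 4, 6 and 4 (median -0.06). Among all genes 44.8% were higher and 44.3% lower in HepG2 (median 0.10) and 33.9% and 43.5% in LM3 (median -0.06). Under median-of-ratios scaling the LM3 counts became 19 higher and 7 lower for subunits and 6 and 2 for assembly factors, and under quantile normalization 3 and 13, and 5 and 4. With the length trend removed they were 2 and 14 (median -0.12) and 2 and 6, and without LM3 siFASRL replicate 2 they were 4 and 9, and 4 and 5. Of all genes in LM3, 42% were higher and 37% lower with median-of-ratios scaling, and 37.5% and 34.7% with quantile normalization. The shares were 31.4% and 44.7% with the length trend removed, and 30.3% and 41.3% without siFASRL replicate 2. Among the members the 4 assembly factors of complex I rose, the 3 of complex II fell in HepG2, and those of complex IV held both kinds. The symbol rule bears on this split. Of 12 further complex IV assembly factors that it leaves out, 10 were higher and 2 lower in HepG2 and 9 and 2 in LM3. Of 7 further ones of complex I, 6 were higher and 1 lower in HepG2, and 4 and 1 in LM3. The lower gene was FOXRED1 in both lines. With median-of-ratios scaling the LM3 counts of these 7 were 6 higher and 0 lower. The difference between these groups was not tested.

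The effect of siFASRL differed between the lines in 14 of 54 members by the interaction test (LM3 effect minus HepG2 effect), beside 46.7% of the 8285 genes tested. UQCRC2 and SDHB moved further in HepG2, with differences of 0.43 (adjusted p = 0.00131) and -0.43 (adjusted p = 0.0023), and NDUFV2 fell in LM3, with a difference of -0.53 (adjusted p = 3.75e-04). These 3 and NDUFA4L2 passed in all 21 other settings, as did 7.65% of all genes with a difference above 0 and 15.7% with 1 below 0. For NDUFS7 the difference was 0.83 (adjusted p = 0.0223), 0.63 (adjusted p = 0.0399) without LM3 siNC replicate 1 and 0.68 (adjusted p = 0.0537) without HepG2 siNC replicate 2. For NDUFA2 it was 0.47 (adjusted p = 0.0212), and 0.35 (adjusted p = 0.066) with the HepG2 effects centred on the range with nearly no gene. NDUFA8, SDHAF3, SDHD, COX10, COX20 and ATP5MG also passed, at -0.31, 0.33, 0.28, 0.21, 0.28 and -0.29, and each lost the call without at least 2 of the 12 libraries in turn. The differences of NDUFA4L2 (1.27) and NDUFC2-KCTD14 (1.07) come with an LM3 signal near 0, where the pseudocount of 1 holds the LM3 effect near 0. With a pseudocount of 0.1 the difference of NDUFC2-KCTD14 was 1.53 and did not pass (adjusted p = 0.127).

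The lines started from different levels. In the siNC libraries 16 members were higher in LM3, 21 lower and 17 not called, beside 41.5% and 42.1% of 8285 genes. NDUFC2-KCTD14 and NDUFA4L2 had means of 59.3 ± 5.93 and 59.4 ± 8.36 (SD, n = 3) in HepG2 and were at most 0.23 and 0.13 in LM3 siNC libraries. ATP5PB, NDUFS6 and NDUFA8 were higher in LM3, at log2 differences of 0.90, 0.90 and 0.83, and UQCRB, NDUFAB1 and UQCRC2 lower, at -0.77, -0.76 and -0.74. Lines and all that differs between them, such as culture or handling, cannot be told apart here.

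**Figure D3:**
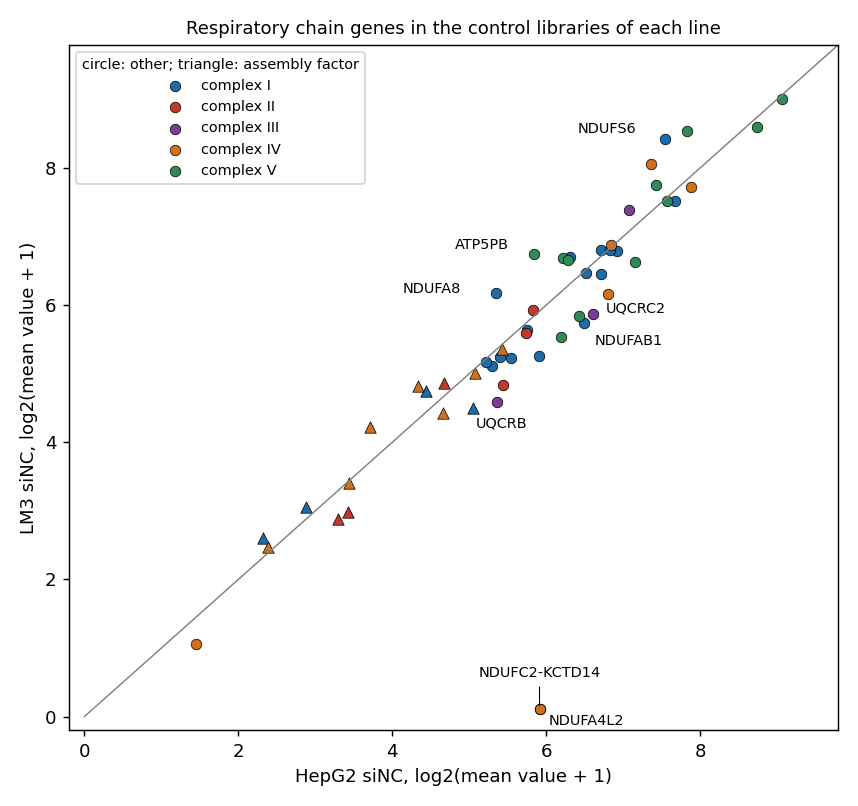
Mean signal of each respiratory chain gene in the siNC libraries, HepG2 on the horizontal and LM3 on the vertical axis, both as log2 of the mean plus 1, with the line of equal level. NDUFC2-KCTD14 and NDUFA4L2 fall on nearly the same point, with log2 differences of -5.81 and -5.80, while the other labelled genes differ by 0.74 to 0.90 in size.

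Genes of the chain, or that work beside it, whose symbols the rule does not take in were listed too, and their counts stand beside 44.8% higher and 44.3% lower among all genes in HepG2 and 33.9% and 43.5% in LM3. With the length trend removed the shares of all genes were 43.1% and 44.4% in HepG2 and 31.4% and 44.7% in LM3. In LM3 they were 42% and 37% with median-of-ratios scaling, and 30.3% and 41.3% without siFASRL replicate 2. In HepG2 they were 45.6% and 42.2% without siNC replicate 2. Cytochrome c, the complex III subunit cytochrome c1 (CYC1) and the assembly factors of complex III, 7 listed of 8, had 6 higher and 0 lower in HepG2 and 7 and 0 in LM3, with medians of 0.44 and 0.56, or 5 and 6 higher with the length trend removed. CYC1 rose at 0.26 (adjusted p = 0.0141) and 0.24 (adjusted p = 0.0329) and CYCS, cytochrome c itself, at 0.83 ± 0.07 (adjusted p = 3.15e-06) and 0.88 ± 0.06 (adjusted p = 3.09e-06), and the assembly factors UQCC3 and UQCC2 rose at 0.88 and 0.53 in HepG2 and at 0.62 and 0.69 in LM3. Further complex I assembly factors, 7 of 12, had 6 higher and 1 lower in HepG2, and 4 and 1 in LM3. The LM3 counts were 2 and 1 with the length trend removed or without siFASRL replicate 2, and 6 and 0 with median-of-ratios scaling. The HepG2 counts were 4 and 1 with the length trend removed or without siNC replicate 2. Among these factors TMEM126A and TIMMDC1 rose in both lines, at 0.53 and 0.35 in HepG2, and FOXRED1 fell at -0.33. Further complex IV assembly factors, 12 of 17, had 10 higher and 2 lower in HepG2 and 9 and 2 in LM3. The rises included COA7 (0.58 and 0.69) and SLIRP (0.63 and 0.67), which steadies mitochondrial mRNA, and COA5 fell at -0.62 and -0.35. Of 6 other complex V genes only ATPAF1, an assembly factor, was listed, at 0.08 (adjusted p = 0.276) in HepG2 and 0.24 (adjusted p = 0.00353) in LM3.

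Electron entry by other routes and the making of ubiquinone, 14 listed of 18, gave 8 higher and 6 lower in HepG2 and 3 and 7 in LM3, or 4 and 5 in LM3 with median-of-ratios scaling. Whether these counts differ from the shares of all genes was not tested. COQ10A, a ubiquinone-binding protein, fell at -1.63 ± 0.08 (adjusted p = 1.49e-07) and -1.24 ± 0.08 (adjusted p = 2.31e-06), and ETFDH, which brings electrons from fatty acid oxidation, at -0.84 and -0.76. SQOR, the sulfide oxidase, rose in HepG2 at 0.65 and fell in LM3 at -0.69, a difference of -1.34 (adjusted p = 5.54e-07). Regulators of mitochondrial biogenesis, 12 of 15, had 8 higher and 3 lower in HepG2 and 8 and 2 in LM3. GABPB1, a subunit of an ETS-type regulator of respiratory chain genes, rose at 1.80 ± 0.09 (adjusted p = 1.49e-07) and 0.93 ± 0.06 (adjusted p = 2.09e-06), and its DNA-binding partner GABPA fell at -0.44 and -0.40. NRF1 rose at 0.24 and 0.32 and YY1 at 0.59 and 0.34, while TFAM, which packs mitochondrial DNA, fell at -0.62 in HepG2 and was at -0.06 (adjusted p = 0.594) in LM3.

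Further sets of genes for large protein complexes were read in the same way. Of 66 mitochondrial ribosomal protein genes, 50 were higher and 6 lower in HepG2 (median 0.35) and 47 and 3 in LM3 (median 0.31). Of 38 proteasome genes, 27 were higher and 2 lower in HepG2 (median 0.33) and 24 and 3 in LM3 (median 0.21). Beside them stand 44.8% higher and 44.3% lower among all genes in HepG2 (median 0.10) and 33.9% and 43.5% in LM3 (median -0.06). More of both sets were higher than lower under median-of-ratios and quantile scaling and with the length trend removed. The difference between these sets and the respiratory chain genes was not tested.

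RefSeq holds promoters of 300 bases for 44 of the 54 members. A match to the NRF1 motif on either strand was found in 14 of them (31.8%), beside 13.8% of the 7111 promoters of listed genes and 8.05% of all 27305 promoters. The ETS motif was in 7 (15.9%), beside 8.4% and 4.44%, the YY1 motif in 7 (15.9%), beside 3.98% and 1.85%, and the E-box CACGTG in 6 (13.6%), beside 9.79% and 7.43%. At least 1 of the NRF1, ETS and YY1 motifs was in 23 members (52.3%), beside 13.1% of all promoters. Of the 15 promoters of members lower in both lines 6 (40%) held the NRF1 motif, among them NDUFAB1, NDUFS7, SDHD and SDHAF4, and of the 9 of members higher in both lines 1 (11.1%), UQCRC1. The ETS motif was in 3 and 0 of these promoters, while the YY1 motif and the E-box were each in 2 (13.3%) of the former and 2 (22.2%) of the latter. The difference between these groups was not tested. The promoters of NDUFA2 and NDUFAF4 held no match, nor did the window given for NDUFAF8. That window, chr17:81239664-81239963 on the plus strand, lies inside the gene at chr17:81239311-81241310. It therefore does not cover the annotated start of NDUFAF8. These letters describe the windows only, and binding was not measured.

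Respiratory chain genes are short, and length ran with the effects. Length and GC content are those of the longest protein-coding transcript of a gene in GENCODE release 29. That transcript need not be the one expressed, as for SDHC at 13566 bases. The median transcript length was 1571 bases for members and 3421 for all listed genes, and 34 of the 54 were among the 1635 shortest genes tested in HepG2, of up to 1983 bases. Among these short genes the median log2 fold change of all genes was 0.18 in HepG2 and 0.11 in LM3, and among the 1580 longest in HepG2 and 1497 in LM3, of 5880 bases or more, 0.06 and -0.14. The 34 short members had a median of 0.12 in HepG2, and 32 of them tested in LM3 had 0.09. With the length trend removed, a setting chosen after the data were seen, 16 members were higher and 26 lower in HepG2, beside 43.1% and 44.4% of all genes, and 4 and 21 in LM3, beside 31.4% and 44.7%. Tested in every setting and called in the same direction each time were 13 rises and 21 falls in HepG2 (16 other settings), or 24.1% and 38.9% of members, beside 31.6% and 31% of all genes. In LM3 (15 other settings) they were 4 rises and 10 falls, or 7.84% and 19.6%, beside 24% and 24.4% of all genes. The rises in both lists are ATP5PB, NDUFAF4 and NDUFAF6, and the falls in both are ATP5F1C, ATP5MC3, COX14, COX7A2, NDUFA2, NDUFAB1, SDHAF4 and SDHC.

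**Figure D4:**
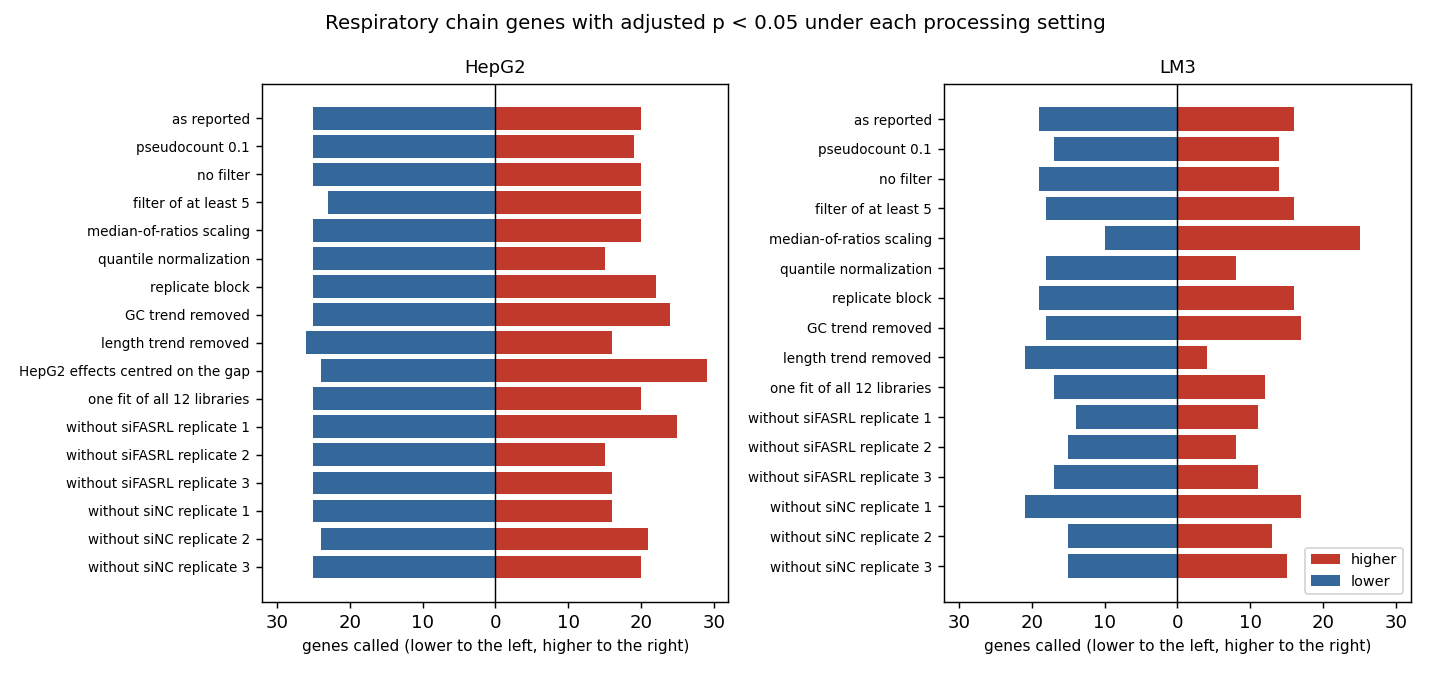
Number of respiratory chain genes called higher and lower with siFASRL in each line under the main setting and each alternative. In HepG2 the count lower stays between 23 and 26, and in LM3 the count higher runs from 4 with the length trend removed to 25 with median-of-ratios scaling.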

How the data were processed

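RNA of 12 libraries was sequenced on BGIseq500 after oligo(dT) selection. According to the labels the authors cleaned reads with SOAPnuke 1.5.2, aligned them with HISAT2 2.0.4 and Bowtie2 2.2.5 and quantified genes with RSEM 1.2.12. The deposited values are a normalized signal, with FPKM or TPM not stated, and no counts, so depth and the precision it gives are unknown. The labels name hg19, while chromosome accessions in the tables are those of GRCh38, and coordinates here are from RefSeq GRCh38.p14, where 8790 of 8842 gene IDs were found. A further 6 columns that repeat LM3 values were not used. log2(signal + 1) was fitted with limma 3.58.1 in R 4.3.3 (Python 3.11.15, pandas 2.3.3) in each line, for genes at 1 or more in at least 3 libraries, with Benjamini-Hochberg adjustment over all genes tested, and the interaction and the control comparison in a fit of 12 libraries. Genes named by rule were NDUFAB1, SDHB, UQCRC1 and ATP5F1B (those listed of a fixed set), by mean effect the highest and lowest subunit of each complex, the 3 highest and 3 lowest assembly factors, members called past a log2 fold change of 1 in size, and the 5 with the largest differences between lines. Others were named after their values were seen. Members and lists were chosen with earlier results of these data known. Alternatives were a pseudocount of 0.1, no filter, a filter of 5, median-of-ratios and quantile scaling, a replicate block, 1 fit of 12 libraries and leaving out each replicate. Removal of GC or length trends, centring of HepG2 effects, and every alternative for the control comparison were chosen after seeing the data. The code was tested on simulated data.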

Additional observations from a re-analysis of the deposited data

Results flagged for a closer look

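By the interaction test, the effect of siFASRL differed between the lines in 7 of the genes named by rule, each given as the LM3 effect minus the HepG2 effect on the log2 scale. In complex I the difference was 0.47 for NDUFA2, which fell in both lines, and 0.83 for NDUFS7. For NDUFV2 it was -0.53, with a fall in LM3 that had no counterpart past the test in HepG2. For SDHB it was -0.43, and for UQCRC2 0.43. For NDUFA4L2 it was 1.27 and for NDUFC2-KCTD14 1.07, both with a signal near 0 in LM3. No cause of these differences was tested.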

How the results depend on the processing

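The HepG2 counts of members stayed within 1.5 times under the alternatives run, while the median of members in HepG2 moved from 0.11 to -0.05 with quantile normalization, -0.09 with the length trend removed and 0.23 with the effects centred on the range with nearly no gene. In LM3 the count higher was 25 with median-of-ratios scaling, 8 with quantile normalization and 4 with the length trend removed. The shares of all genes higher were 42%, 37.5% and 31.4%. The median of members was 0.18, -0.01 and -0.13 in those 3 settings. The count lower was 10 with median-of-ratios scaling, beside 37% of all genes, and that scaling left 0 members past the fold threshold. Leaving out each library in turn gave, in HepG2, 15 to 25 higher, 24 to 25 lower, 4 to 6 past the fold threshold and medians of 0.08 to 0.12, and in LM3 8 to 17, 14 to 21, 0 to 2 and 0.01 to 0.05. It gave 10 to 16 members that differ between the lines, and 15 to 16 higher and 18 to 21 lower in LM3 siNC. Over all members, 4 directions in HepG2 and 8 in LM3 turned with quantile normalization, and 6 and 13 with the length trend removed. Among those called in the main setting these were ATP5F1B in HepG2 and COX18 and NDUFS6 in LM3 with quantile normalization, and ATP5MC1 and NDUFS8 in HepG2 and ATP5MC1, ATP5MF, NDUFS6 and SDHB in LM3 with the length trend removed. The directions that turned included, with quantile normalization, ATP5F1B (-0.13 in HepG2 and -0.13 in LM3), COX18 (0.08 in LM3) and NDUFV2 (-0.04 in HepG2), and with the length trend removed ATP5F1B (-0.02 in LM3), COX8A (-0.20 and -0.13), NDUFS8 (-0.03 in HepG2), NDUFV2 (-0.06 in HepG2) and SDHB (-0.0050 in LM3). The cause was not tested. With the replicate number as a block, HepG2 had 22 higher and 25 lower with 4 past the fold threshold and a median of 0.11, LM3 16 and 19 with 2 and 0.07, and 14 members differed between the lines. Nothing in the labels pairs the replicates: deviations of replicates with the same number correlated across genes at 0.381, 0.434 and -0.26 in HepG2 and -0.092, 0.134 and -0.213 in LM3, which does not set them apart from other pairings. The control comparison could not be fitted with the block. Depth is unknown, so the precision it allows cannot be given.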
